A study of Mus musculus with 8 samples.

Results

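The genes of the basement membrane and of the surrounding matrix are laminins, collagens, nidogens, proteoglycans, fibulins and adhesive or matricellular glycoproteins, 39 genes in all that were listed by name. Of these, 38 had a probe set annotated to a single gene symbol, out of 22180 such genes on the array, and Fbn1 was not analysed here. The samples were endothelial cells sorted from mouse colon as negative for CD45 and CD11b and positive for CD31 and taken 2 days after transplantation from the colon, a target organ of graft-versus-host disease. All recipients were female C57BL/6 mice. In both groups, controls included, 5 days of busulfan and cyclophosphamide preceded the transfer of bone marrow with added T cells, so neither group is an untreated colon. Donors were LP/J mice in the allogeneic group (n = 4) and C57BL/6 mice in the syngeneic group (n = 4). Ages were not given in the sources used here. The labels call each array a biological replicate, and colon had been digested for 60 min with collagenase IV before the sort. Values are log2 signals normalized with RMA, and a change is the allogeneic mean minus the syngeneic mean.

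Endothelial cells rest on a thin basement membrane. Laminin trimers of an alpha, a beta and a gamma chain polymerize on the cell surface, collagen IV forms a second, covalently linked network, and nidogens and the heparan sulfate proteoglycan perlecan join both. Beyond it lies the interstitial matrix of fibrillar collagens, collagen VI, elastic fibres and small leucine-rich proteoglycans, which is made mainly by fibroblasts and mural cells. In the colon the epithelium has a basement membrane of its own, so that laminin chains can come from endothelial, epithelial, muscle or fibroblast RNA.

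Markers of the sorted cells and of other colon cells were both present. The mean over 20 endothelial markers lay between 7.49 and 8.16 in the allogeneic group and between 7.82 and 9.64 in the syngeneic group, with syngeneic arrays 3 (8.81) and 4 (9.64) above all others. Over 18 epithelial markers the means were 10.48 to 10.71 and 9.81 to 10.44, lowest on these same arrays and without overlap between the groups. Means over 12 fibroblast markers did not overlap, at 6.77 to 7.49 in the allogeneic and 6.33 to 6.60 in the syngeneic group, with allogeneic array 4 highest. Mural and smooth muscle markers (13 genes) had means of 7.20 to 7.92 and 7.38 to 8.20. Means of 6 lymphatic endothelial markers overlapped (6.43 to 7.54 and 6.79 to 7.53), as did those of 9 leukocyte markers (5.14 to 5.90 and 5.11 to 5.80). Markers of enteric glia and neurons (6 genes) and of mesothelium (5 genes) had low means of 4.54 to 5.32 on all arrays. The list of fibroblast markers includes Cd34, which endothelial cells also express. In sorted bulk samples, fewer cells of a type and less RNA per cell cannot be told apart. Because epithelial, fibroblast and muscle transcripts were present on every array, no value below can be assigned to endothelial cells alone.

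The comparison of donor types asked whether matrix genes differed between allogeneic and syngeneic recipients. None of the 38 measured members passed an adjusted p below 0.05 in limma, a threshold passed by 0.469% of all genes (0.356% higher and 0.113% lower in the allogeneic group). At an unadjusted p below 0.05 there were 10 members (26.3%), 7 with a negative change (Lama5, Col4a1, Nid2, Hspg2, Col18a1, Tnc and Thbs1) and 3 with a positive one (Lamb3, Dcn and Lum), where 13.2% of all genes reached that level (5.43% lower and 7.81% higher in the allogeneic group). The log2 change was negative in 30 of the 38 members, or 78.9%, against 51% of all genes. Their median change was -0.21, and that of all genes -0.01. These tallies were lower in 3 other fits. With the mean of the epithelial markers as a covariate 20 of 38 changes were negative, with that of the endothelial markers 19, and without syngeneic arrays 3 and 4 it was 21. The median of the members was then -0.07, 0.02 and -0.09. Members at an unadjusted p below 0.05 numbered 2, 4 and 4 in these fits, beside 1490, 2230 and 2377 of all 22180 genes. Epithelial marker means did not overlap between the groups, so the fit with them cannot separate donor type from epithelial RNA. Syngeneic arrays 3 and 4 had the highest endothelial marker means, and without them fewer syngeneic than allogeneic arrays remained. Members at an unadjusted p below 0.05 also varied when 1 array was left out. They ranged from 6 (without allogeneic array 2 or without syngeneic array 3) to 16 (without syngeneic array 2). Of all 22180 genes, 2401, 2488 and 3404 reached that level in these fits. With a replicate block there were 17 members, beside 3037 of all genes. The 104 genes past the adjusted threshold over the whole array numbered between 8 (without syngeneic array 3) and 180 (without syngeneic array 2). The 4 arrays of one group all lay on one side of the other group in 2 members, Thbs1 and Lamb3, or 5.26%, while this held for 8.55% of all genes (5.18% higher and 3.36% lower).

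**Figure D1:**
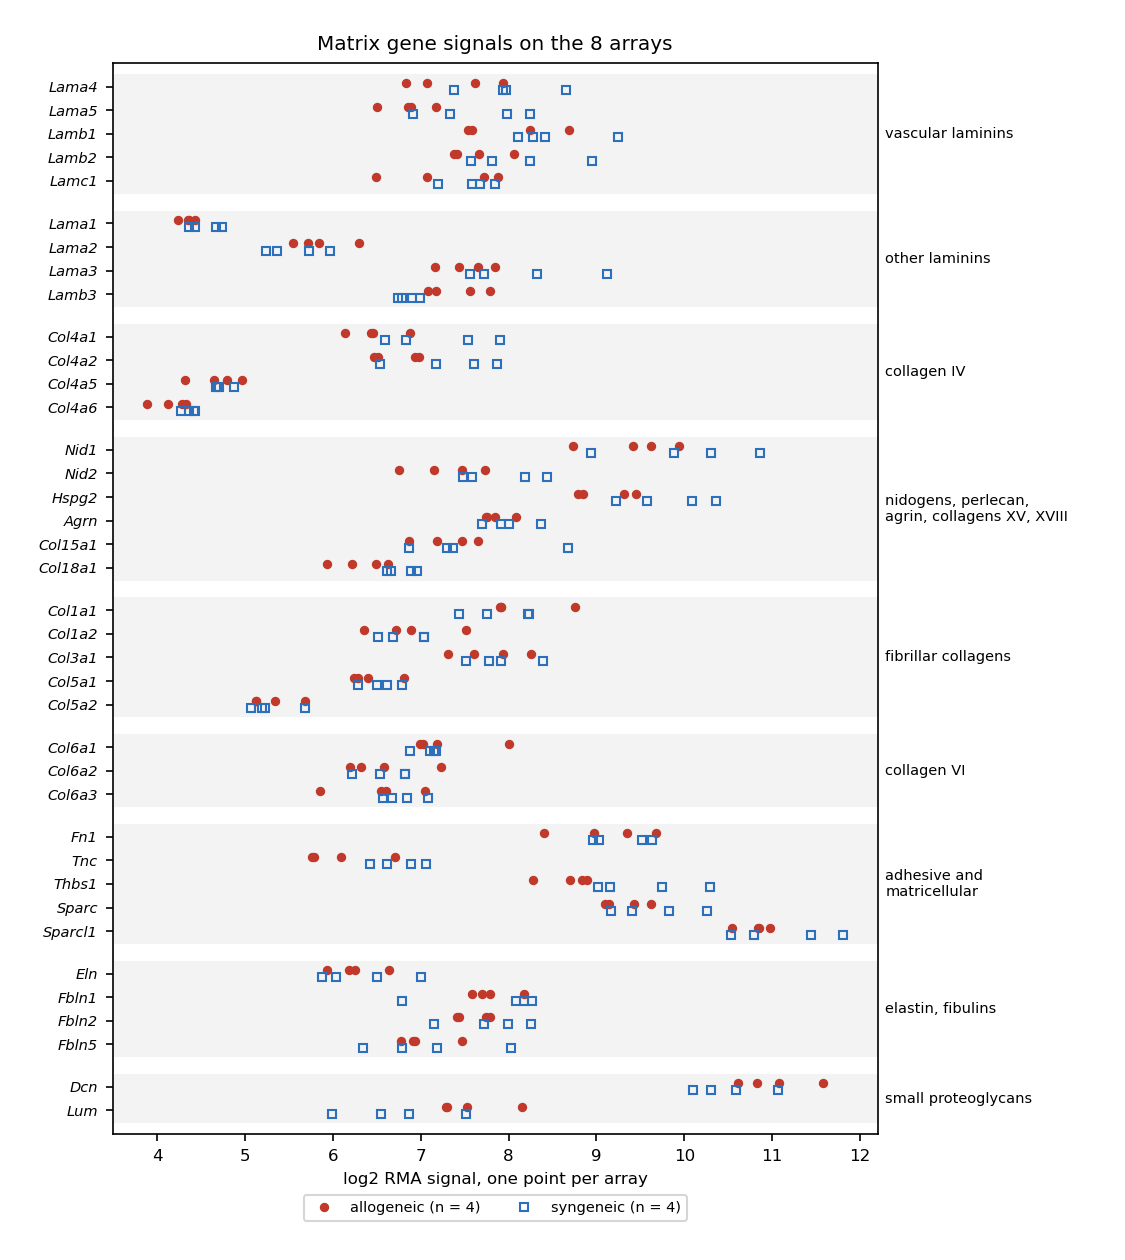
Log2 RMA signals of the 38 measured matrix genes, ordered by role, with 1 point per array (filled circles allogeneic, open squares syngeneic, n = 4 each). The groups overlap in all genes except Lamb3, higher in the allogeneic group, and Thbs1, higher in the syngeneic group.

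The vascular laminin chains all had negative changes, with a median of -0.51 over 5 genes. Endothelial markers also had negative changes, in 20 of 20 genes with a median of -0.66 and none past the threshold. Lama5 encodes the alpha chain that marks mature vessels and also lies under epithelium. Its signals were 6.86, 6.51, 6.89 and 7.17 on allogeneic arrays 1 to 4 and 7.33, 6.91, 7.99 and 8.25 on syngeneic arrays 1 to 4. The highest values were those of syngeneic arrays 4 and 3, and syngeneic array 2 lay within the allogeneic range. Group means were 6.86 ± 0.27 and 7.62 ± 0.61 (SD, n = 4 each), which is a log2 difference of -0.76 ± 0.27 (SE), or 1.69-fold (limma adjusted p = 0.264). Lamb1, the beta chain common to many laminins, measured 7.54, 7.58, 8.25 and 8.69 in the allogeneic group and 8.28, 8.11, 8.41 and 9.25 in the syngeneic group. Allogeneic arrays 1 and 2 were lowest and syngeneic array 4 highest, with the others in between and overlapping (change -0.50 ± 0.30 SE, limma adjusted p = 0.524). Lama4, the alpha chain typical of endothelium, ranged from 6.83 to 7.94 in the allogeneic and 7.38 to 8.66 in the syngeneic group (change -0.62). The changes of Lamb2, the beta chain of vessel and synaptic laminins, and of Lamc1, the gamma chain of most trimers, were -0.51 and -0.28. Lamc1 was the exception in its highest array, which was allogeneic array 4, whereas the other 4 chains peaked on syngeneic array 4.

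Laminin chains of other tissues did not share one direction. Lama3 and Lamb3 encode partner chains of the laminin that anchors epithelial cells at hemidesmosomes. Lama3 signals were 7.65, 7.16, 7.43 and 7.84 on allogeneic arrays 1 to 4 and 7.72, 7.56, 8.32 and 9.12 on syngeneic arrays 1 to 4, highest on syngeneic arrays 4 and 3, and the groups overlapped (change -0.66 ± 0.31 SE, limma adjusted p = 0.397). Lamb3 signals were 7.57, 7.08, 7.17 and 7.79 in the allogeneic group and 6.79, 6.90, 6.99 and 6.74 in the syngeneic group, so that every allogeneic array lay above every syngeneic one. Its means were 7.40 ± 0.33 and 6.86 ± 0.11 (SD, n = 4 each), which is a log2 difference of 0.55 ± 0.17 (SE), or 1.46-fold, without passing the threshold (limma adjusted p = 0.208). Taken within each array, Lamb3 minus Lama3 was -0.26 to -0.05 in the allogeneic group and -2.38 to -0.65 in the syngeneic group, and syngeneic array 4 had the value farthest below 0. This pair was singled out after its values were seen, and the difference was not tested. Epithelial markers had positive changes in 16 of 18 genes, 1 of them past the threshold (the carbonic anhydrase gene Car2, limma adjusted p = 0.0238, lost in 5 of 8 fits that left out 1 array). With the epithelial marker mean as a covariate the change was 0.36 for Lamb3 and 0.12 for Lama3. Lama2, the alpha chain of muscle and nerve sheaths, had a change of 0.28. Lama1, an alpha chain mostly of embryonic and some epithelial membranes, had a low signal of 4.24 to 4.74 on all arrays, near the array medians (4.68 to 4.79), and a change of -0.20.

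**Figure D2:**
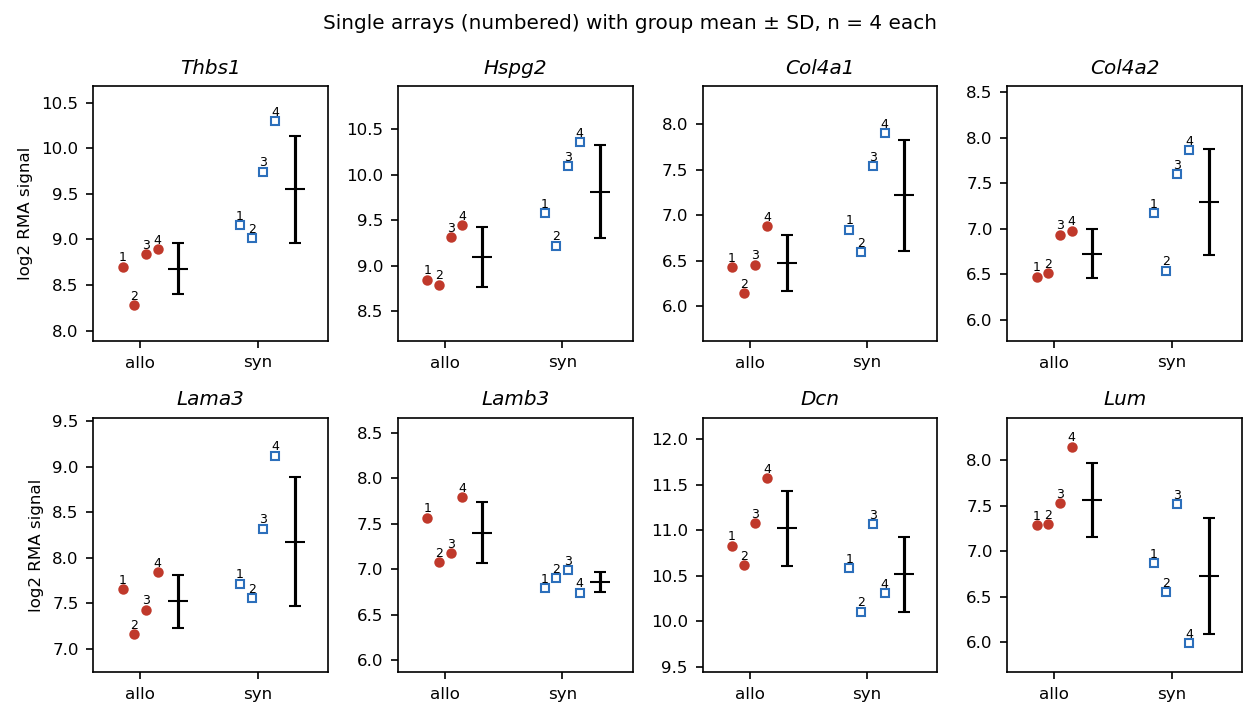
Log2 RMA signals of 8 matrix genes by array, with the replicate number at each point and the group mean ± SD beside it (n = 4 each); each panel spans the same log2 width. Thbs1, Hspg2, Col4a1, Col4a2 and Lama3 were highest on syngeneic arrays 3 and 4, whereas Lamb3, Dcn and Lum were highest on allogeneic array 4.

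The 4 measured chains of collagen IV all had negative changes, with a median of -0.39 and none past the threshold. Col4a1 and Col4a2 encode the chains of the collagen IV trimer found in nearly all basement membranes, and they are neighbours on chromosome 8, transcribed in opposite directions. In RefSeq (GRCm38.p6) their start sites lie 21 bases apart, so that the windows from 250 bases before to 50 after each start share 78 bases. The 250 bases before each start are shown because the starts lie so close. The motif CCAAT and the motifs GGGCGG or TATAAA of either strand are in capitals. On this annotation the Col4a1 start (11312826) and the Col4a2 start (11312805) lie so that the transcribed 5′ ends overlap. The stretches shown therefore share no base, and each lies on the transcribed side of the other gene's start. The Col4a1 stretch is chr8:11312827-11313076 on the minus strand and the Col4a2 stretch chr8:11312555-11312804 on the plus strand, both 5′ to 3′.
Col4a1: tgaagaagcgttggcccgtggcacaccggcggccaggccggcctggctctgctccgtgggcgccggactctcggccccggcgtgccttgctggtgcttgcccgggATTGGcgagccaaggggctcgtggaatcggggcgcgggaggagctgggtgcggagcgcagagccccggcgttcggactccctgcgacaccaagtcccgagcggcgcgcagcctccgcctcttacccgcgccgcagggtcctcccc
Col4a2: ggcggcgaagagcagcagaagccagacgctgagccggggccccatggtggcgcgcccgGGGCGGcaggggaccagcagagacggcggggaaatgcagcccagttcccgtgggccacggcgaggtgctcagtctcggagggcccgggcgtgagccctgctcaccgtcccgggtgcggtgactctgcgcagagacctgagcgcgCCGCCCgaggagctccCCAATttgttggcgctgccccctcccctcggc
Each held 1 CCAAT, and the Col4a2 stretch also held 2 GGGCGG.

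Col4a1 signals were 6.43, 6.14, 6.46 and 6.88 on allogeneic arrays 1 to 4 and 6.84, 6.59, 7.54 and 7.90 on syngeneic arrays 1 to 4. Syngeneic arrays 3 and 4 stood above all others, while syngeneic arrays 1 and 2 lay within the allogeneic range. The means of 6.48 ± 0.31 and 7.22 ± 0.61 (SD, n = 4 each) made a log2 difference of -0.74 ± 0.28 (SE), or 1.67-fold (limma adjusted p = 0.282). Col4a2 measured 6.47, 6.51, 6.93 and 6.98 in the allogeneic group and 7.17, 6.54, 7.60 and 7.86 in the syngeneic group. Again syngeneic arrays 4 and 3 were highest, and only syngeneic array 2 lay within the allogeneic range, for a change of -0.57 ± 0.26 (SE, limma adjusted p = 0.392). Within each array Col4a1 minus Col4a2 stayed between -0.48 and 0.05, so the spread of that difference over the 8 arrays (0.53) was smaller than that of either gene alone. The chains of the other pair, Col4a5 and Col4a6, which are more restricted to certain epithelia and smooth muscle, are also head to head, on the X chromosome, with start sites 1343 bases apart. Their signals were low, 4.32 to 4.97 and 3.89 to 4.43, and their changes were -0.05 and -0.22. With the epithelial covariate the changes were -0.10 for Col4a1, 0.07 for Col4a2, -0.15 for Col4a5 and -0.37 for Col4a6, and no difference between chains was tested. No detection call was at hand, so a low signal is not given as absence.

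The genes that link or border the 2 networks all had negative changes, with a median of -0.51 over 6 genes. Hspg2 encodes perlecan, and its signals were 8.85, 8.79, 9.31 and 9.45 on allogeneic arrays 1 to 4 and 9.58, 9.22, 10.09 and 10.36 on syngeneic arrays 1 to 4. Syngeneic arrays 3 and 4 were highest and syngeneic array 2 lay between the allogeneic values. Means of 9.10 ± 0.33 and 9.81 ± 0.51 (SD, n = 4 each) gave a change of -0.71 ± 0.24 (SE), or 1.64-fold (limma adjusted p = 0.24). Nid1 encodes the nidogen that binds laminin to collagen IV. It measured 9.42, 8.73, 9.62 and 9.93 in the allogeneic group and 9.88, 8.94, 10.30 and 10.86 in the syngeneic group, with the highest values on syngeneic arrays 4 and 3 and the lowest on allogeneic array 2 and syngeneic array 2 (change -0.57 ± 0.37 SE, limma adjusted p = 0.557). Nid2, its relative, ranged from 6.76 to 7.74 in the allogeneic and 7.48 to 8.44 in the syngeneic group (change -0.64, limma adjusted p = 0.318). Col18a1 encodes the parent protein of endostatin. Its values were 5.94 to 6.63 in the allogeneic and 6.62 to 6.96 in the syngeneic group, an overlap by only 1 syngeneic array (change -0.46, limma adjusted p = 0.287). Unlike the others, Col18a1 had its lowest syngeneic value on array 4. Col15a1, a collagen at the outer face of vessel membranes, peaked on syngeneic array 4 at 8.67 against 6.87 to 7.65 on the other 7 arrays (change -0.26). Agrn, a proteoglycan of basement membranes and synapses, had a change of -0.14.

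The fibrillar collagens had 3 positive and 2 negative changes, from -0.12 to 0.21, with a median of 0.03 over 5 genes. With the epithelial covariate 4 of the 5 were negative, with a median of -0.27. Col1a1, a chain of collagen I, measured 7.92, 7.92, 7.90 and 8.75 on allogeneic arrays 1 to 4 and 8.22, 7.75, 8.23 and 7.43 on syngeneic arrays 1 to 4. Allogeneic array 4 was highest and syngeneic array 4 lowest, and the other 6 arrays lay between 7.75 and 8.23. Means were 8.12 ± 0.42 and 7.91 ± 0.39 (SD, n = 4 each), a change of 0.21 ± 0.24 (SE, limma adjusted p = 0.762) with a 95% interval of -0.32 to 0.74. The partner chain Col1a2 had a change of 0.06 (-0.47 to 0.58). Col3a1, the collagen of distensible tissue and vessel walls, ranged from 7.31 to 8.25 in the allogeneic and 7.52 to 8.39 in the syngeneic group, with a change of -0.12 (-0.64 to 0.39). For Col5a1 and Col5a2, whose product starts fibrils of collagen I, the changes were -0.11 (-0.49 to 0.26) and 0.03 (-0.37 to 0.42). The intervals are wide enough that an equal level of these genes in both groups is not shown. Of these 5 genes, 4 were highest on allogeneic array 4, as was the fibroblast marker mean (7.49). The part of fibroblast RNA in these values was not tested.

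The promoter stretches of 2 fibrillar collagens are given for comparison with those of collagen IV, as they come from genes that peaked on different arrays. The Col1a2 stretch is chr6:4505368-4505617 and the Col3a1 stretch chr1:45311288-45311537, both on the plus strand and 5′ to 3′, with the same motifs in capitals.
Col1a2: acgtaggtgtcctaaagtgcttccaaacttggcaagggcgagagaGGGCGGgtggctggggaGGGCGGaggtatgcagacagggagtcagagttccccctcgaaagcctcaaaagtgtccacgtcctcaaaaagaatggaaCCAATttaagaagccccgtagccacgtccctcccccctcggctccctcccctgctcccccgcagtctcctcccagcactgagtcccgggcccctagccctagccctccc
Col3a1: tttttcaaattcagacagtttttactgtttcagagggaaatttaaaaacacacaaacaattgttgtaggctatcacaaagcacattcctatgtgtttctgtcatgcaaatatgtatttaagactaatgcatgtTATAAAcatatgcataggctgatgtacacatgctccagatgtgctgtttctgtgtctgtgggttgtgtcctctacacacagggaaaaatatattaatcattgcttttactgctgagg
The Col1a2 stretch held 2 GGGCGG and 1 CCAAT, and the Col3a1 stretch held 1 TATAAA. GC content was 62.0% and 35.2%, against 74.4% for Col4a1 and 73.6% for Col4a2.

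Collagen VI, which forms beaded microfibrils around cells, had changes of 0.22, -0.02 and -0.28 for its 3 chains. Col6a1 signals were 7.03, 6.99, 7.18 and 8.01 in the allogeneic group and 7.11, 6.88, 7.18 and 7.15 in the syngeneic group. Allogeneic array 4 stood above the other 7 arrays, which lay between 6.88 and 7.18 (change 0.22 ± 0.22 SE, limma adjusted p = 0.721). Col6a3 signals were 6.61, 5.85, 6.55 and 7.05 in the allogeneic group and 6.67, 6.57, 6.85 and 7.08 in the syngeneic group, lowest on allogeneic array 2 and highest on syngeneic array 4 and allogeneic array 4 (change -0.28 ± 0.23 SE, limma adjusted p = 0.668).

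Among adhesive and matricellular glycoproteins all 5 changes were negative, with a median of -0.34. Thbs1 encodes thrombospondin, an inhibitor of angiogenesis that also activates latent TGF-beta, and it had the largest negative change of the 38 members. It measured 8.70, 8.28, 8.84 and 8.89 on allogeneic arrays 1 to 4 and 9.16, 9.01, 9.74 and 10.30 on syngeneic arrays 1 to 4. All 4 syngeneic arrays lay above all 4 allogeneic ones, and syngeneic arrays 3 and 4 were again highest. The means of 8.68 ± 0.28 and 9.55 ± 0.59 (SD, n = 4 each) differed by -0.87 ± 0.26 on the log2 scale (SE), or 1.83-fold, and did not pass (limma adjusted p = 0.176). Tnc, which encodes tenascin-C of remodelling tissue, ranged from 5.76 to 6.71 in the allogeneic and 6.42 to 7.06 in the syngeneic group, with only allogeneic array 4 inside the syngeneic range (change -0.66 ± 0.23 SE, limma adjusted p = 0.241). Sparcl1 encodes hevin, a relative of SPARC that binds collagen. Its signals were 10.54, 10.83, 10.85 and 10.98 in the allogeneic group and 10.79, 10.53, 11.44 and 11.80 in the syngeneic group, and syngeneic arrays 3 and 4 stood above the remaining 6 (change -0.34 ± 0.24 SE, limma adjusted p = 0.603). Sparc itself had a change of -0.34, and Fn1, the gene of fibronectin, one of -0.18.

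Genes of elastic fibres and fibulins had changes between -0.18 and -0.02 (median -0.08 over 4 genes). Fbln1 binds fibronectin and laminin. It measured 7.70, 7.58, 7.79 and 8.18 on allogeneic arrays 1 to 4 and 8.26, 8.09, 8.17 and 6.79 on syngeneic arrays 1 to 4. Syngeneic array 4 was the lowest of all 8 arrays although the other 3 syngeneic arrays were among the 4 highest, which left the group means level (7.81 ± 0.26 and 7.83 ± 0.70, SD, n = 4 each). Without syngeneic array 4 the change was -0.36 in place of -0.02, with the endothelial covariate it was -0.40 and with the epithelial one -0.84 (limma adjusted p = 0.742 and 0.602). Fbln2, a fibulin of vessel walls, measured 7.44, 7.41, 7.79 and 7.74 in the allogeneic group and 7.72, 7.15, 7.99 and 8.26 in the syngeneic group, highest on syngeneic array 4 and lowest on syngeneic array 2 (change -0.18 ± 0.22 SE, limma adjusted p = 0.785). Fbln5, needed for elastic fibre assembly, and Eln, the gene of elastin, were both highest on syngeneic array 4 (8.03 and 7.00), with changes of -0.06 and -0.10. Without syngeneic array 4 these became 0.25 and 0.12. Mural and smooth muscle markers, whose mean was also highest on syngeneic array 4 (8.20), had negative changes in 12 of 13 genes (median -0.28), and their part in these values was not tested.

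The small leucine-rich proteoglycan genes Dcn and Lum had positive changes. Their products, decorin and lumican, bind collagen fibrils and set their spacing, and the genes are neighbours on chromosome 10. Lum measured 7.29, 7.30, 7.53 and 8.15 on allogeneic arrays 1 to 4 and 6.87, 6.55, 7.51 and 5.99 on syngeneic arrays 1 to 4. Syngeneic array 3 was the only syngeneic array inside the allogeneic range, and syngeneic array 4 was lowest. Means of 7.57 ± 0.40 and 6.73 ± 0.64 (SD, n = 4 each) gave a change of 0.83 ± 0.30 (SE), or 1.78-fold, the largest positive change of the 38 members (limma adjusted p = 0.268). Dcn measured 10.83, 10.62, 11.08 and 11.57 in the allogeneic group and 10.58, 10.10, 11.06 and 10.31 in the syngeneic group, with allogeneic array 4 highest and syngeneic array 2 lowest (change 0.51 ± 0.23 SE, 1.42-fold, limma adjusted p = 0.377). Fibroblast markers had changes of the same sign in 11 of 12 genes, a median of 0.47 and 1 gene past the threshold in the same direction, the dipeptidase gene Dpep1 (limma adjusted p = 0.00979, lost in 2 of 8 fits that left out 1 array). Their array means did not overlap either (6.77 to 7.49 against 6.33 to 6.60), and the part of fibroblast RNA in the values of Dcn and Lum was not tested.

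Set side by side, the vascular laminins and collagen IV (9 genes, all with negative changes) had a median change of -0.51, the fibrillar collagens one of 0.03 and all genes one of -0.01. With the epithelial covariate that order turned over, at -0.11 for the 9 genes and -0.27 for the fibrillar collagens. Epithelial marker means did not overlap between the groups, so that fit cannot separate donor type from epithelial RNA. The difference between these sets was not tested. The mean over the 9 genes minus the mean over the fibrillar collagens, taken within each array, was -0.39, -0.30, -0.21 and -0.41 in the allogeneic group. In the syngeneic group it was -0.09, -0.13, -0.08 and 0.93. The groups did not overlap in this difference, but 3 of the 4 syngeneic values lay close to the allogeneic ones and syngeneic array 4 alone stood far apart. Adding the 6 linking genes, 11 of 15 basement membrane genes had their highest value on syngeneic array 4 and 2 on allogeneic array 4. Of the 10 fibrillar collagen, collagen VI and proteoglycan genes, 8 were highest on allogeneic array 4 and 1 on syngeneic array 4. Over all genes these arrays held the highest value in 15.6% (syngeneic array 4) and 13.0% (allogeneic array 4). The lowest value of a basement membrane gene was on allogeneic array 2 in 8 and on allogeneic array 1 in 5 of 15 genes. Over all genes these arrays held the lowest value in 12.7% and 11.0%. They were also lowest in 4 and 1 of the 10 fibrillar collagen, collagen VI and proteoglycan genes. Endothelial marker means were lowest on the same arrays (7.57 and 7.49), and a link was not tested.

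**Figure D3:**
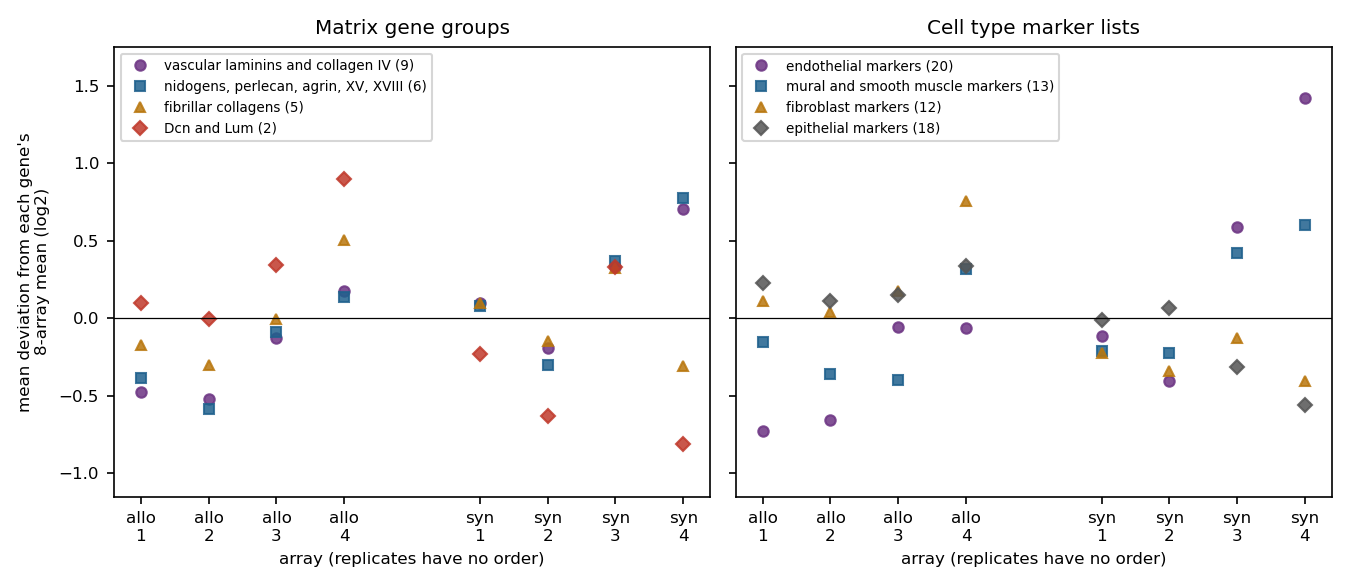
Mean deviation of gene groups from each gene's own mean over the 8 arrays (log2), for matrix genes on the left and marker lists on the right, with the number of genes in brackets and 1 point per array. Basement membrane genes and endothelial markers were both highest on syngeneic array 4, and Dcn, Lum, fibrillar collagens and fibroblast markers were highest on allogeneic array 4.

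Changes were also fitted without syngeneic arrays 3 and 4, with the endothelial marker mean as a covariate and with the epithelial one, and values are given in that order. The median of the 9 vascular laminin and collagen IV genes was -0.18, -0.07 and -0.11, with 9, 7 and 7 of them negative. That of the fibrillar collagens was 0.01, 0.09 and -0.27. Col4a1, at -0.74 over all arrays, had -0.24, -0.21 and -0.10. Lama5 had -0.26, -0.25 and -0.11, Hspg2 -0.30, -0.22 and -0.16, and Nid1 0.02, 0.14 and 0.21. All 4 of these lay closer to 0 in each setting, and Nid1 turned positive. Syngeneic arrays 3 and 4 held the highest values of all 4 genes, so leaving out these arrays had to raise the fitted changes. Fewer syngeneic than allogeneic arrays remained in that fit. Thbs1 had -0.41, -0.36 and -0.21, and Tnc -0.43, -0.37 and -0.51. Lamb3, at 0.55 over all arrays, had 0.55, 0.54 and 0.36, and Lum, at 0.83, had 0.86, 0.77 and 0.46, so that both were nearer to 0 with the epithelial covariate. Dcn had 0.68, 0.68 and 0.49, and Col18a1 -0.46, -0.40 and -0.60. None of the 38 members passed an adjusted p of 0.05 in limma in these settings.

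**Figure D4:**
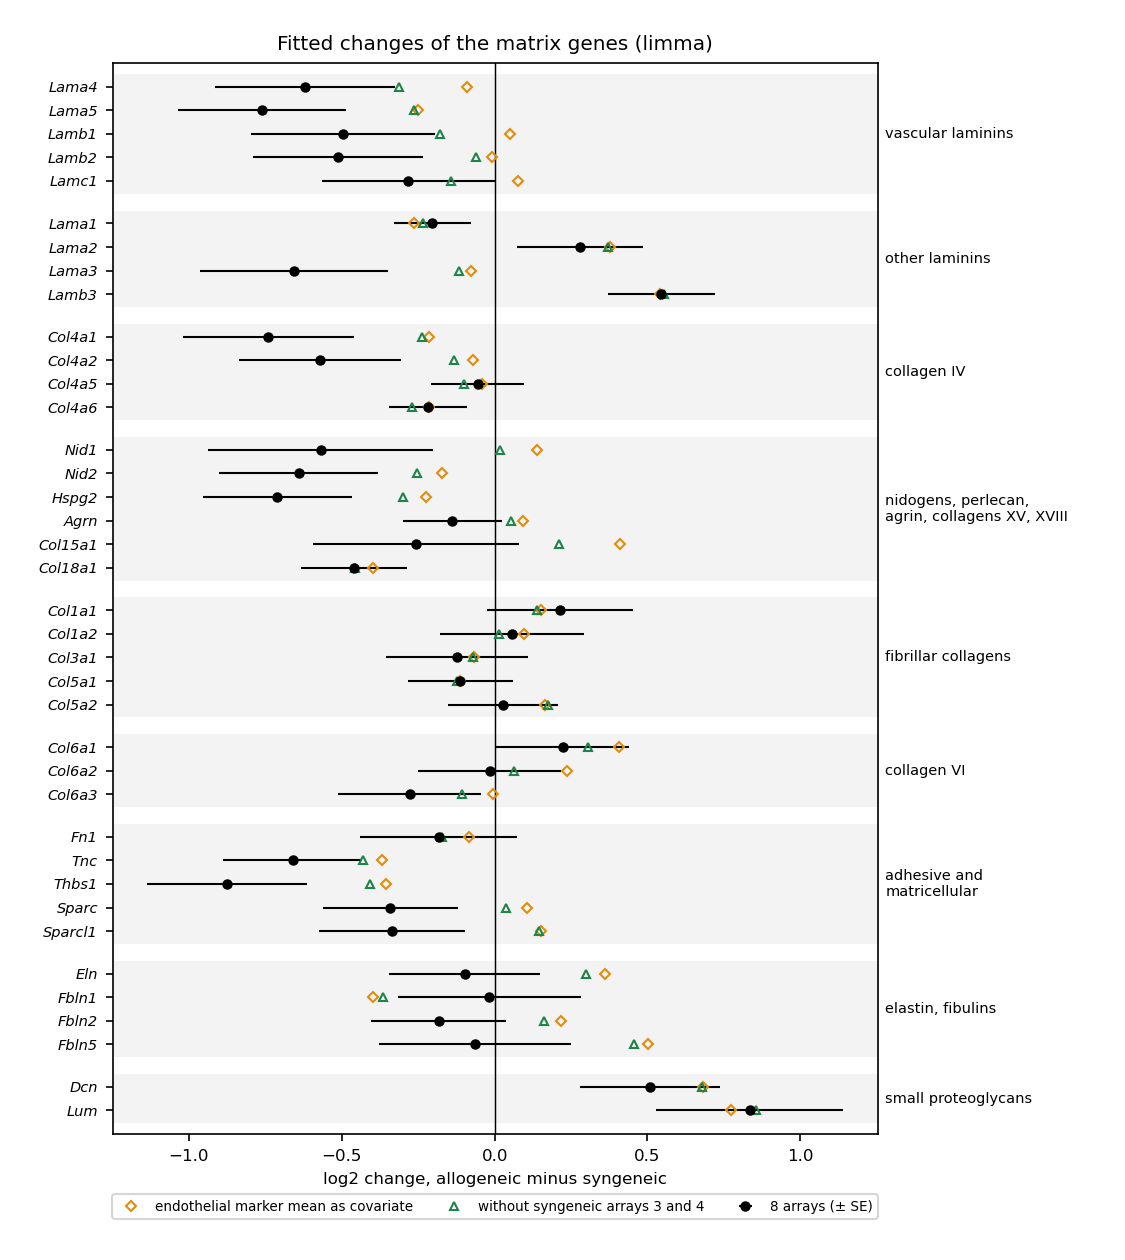
Fitted log2 change of each measured matrix gene (allogeneic minus syngeneic), with its standard error over the 8 arrays (black), with the endothelial marker mean as a covariate (diamonds) and without syngeneic arrays 3 and 4 (triangles). Col4a1, Col4a2, Nid1, Nid2, Hspg2 and the vascular laminins lie closer to 0 in both settings, while Lamb3, Col18a1 and Lum stay near their first value.

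Promoter windows of 300 bases were at hand for 25 of the 38 members (32 windows, RefSeq, GRCm38.p6). GGGCGG or its complement CCGCCC stood in 21 of them (65.6%), against 35.7% of all 32851 windows, with a median GC content of 59.5% against 52.7%. CCAAT or ATTGG stood in 8 (25.0% against 37.4%), CAGACA or TGTCTG in 12 (37.5% against 21.0%), TATAAA or TTTATA in 3 (9.38% against 13.6%) and TGANTCA (N is any base) in 1 (3.13% against 7.81%). Neither window of Lamb3 held GGGCGG or CCAAT. A match describes the letters and not a bound site.

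Hspg2 had 5 GGGCGG in the 250 bases before its start (chr4:137468553-137468802, plus strand), shown 5′ to 3′ with these in capitals because it had the smallest p of the linking genes.
Hspg2: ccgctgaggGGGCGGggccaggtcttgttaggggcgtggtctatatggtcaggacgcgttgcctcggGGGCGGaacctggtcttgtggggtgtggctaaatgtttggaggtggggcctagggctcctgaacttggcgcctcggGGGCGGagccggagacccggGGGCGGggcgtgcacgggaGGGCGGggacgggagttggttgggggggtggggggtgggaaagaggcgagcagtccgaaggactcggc

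A further 5 lists of matrix genes and 1 of the TGF-beta axis showed few differences. Of 36 measured genes of other interstitial matrix 1 passed, Ogn, which encodes the small proteoglycan osteoglycin. Ogn rose from 6.97 ± 0.37 in the syngeneic to 8.50 ± 0.58 in the allogeneic group (SD, n = 4 each), without overlap, by 1.53 ± 0.28 on the log2 scale (SE) or 2.88-fold (limma adjusted p = 0.0493). It kept the call only without syngeneic array 2, and lost it in the other 7 fits that left out 1 array (limma adjusted p up to 0.130), with the endothelial covariate (0.145), with the epithelial one (0.620) and without syngeneic arrays 3 and 4 (0.174). Thbs4, a thrombospondin of the same list, had a change of 0.84 (limma adjusted p = 0.142). None of the other 5 lists held a call. Among 22 other basement membrane genes Tinagl1, a matricellular protein of vessel membranes, had -0.92 and Hmcn1, hemicentin, 0.60 (limma adjusted p = 0.0616 and 0.151). These had the smallest p of that list, whose largest change was that of Egfl7 (-1.04). Egfl7 is also in the list of endothelial markers, so it is not a separate result. Without syngeneic array 2 Tinagl1 passed the threshold (limma adjusted p = 0.0382), as did the syndecan gene Sdc4 (limma adjusted p = 0.0440). Tinagl1 did not overlap between groups, at 9.25 to 9.83 in the allogeneic and 10.07 to 10.90 in the syngeneic arrays. Of 20 matrix receptors the syndecan genes Sdc4 and Sdc2 had 0.82 and 0.98 (limma adjusted p = 0.0943 and 0.110). In collagen biosynthesis (21 genes, 15 negative, median -0.21) the prolyl hydroxylase gene P4ha2 (-0.60) and the chaperone gene Ppib (0.21) had the smallest p. The largest change of that list was that of Plod2 (-0.70). Among crosslinking enzymes (6 genes, 5 negative, median -0.19) the smallest p values were those of Loxl3 (change -0.58) and Tgm2 (-0.43). In the TGF-beta axis (11 genes, 7 negative, median -0.16) they were those of Smad7 (-0.39) and Tgfb3 (-0.61).

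Of the 38 members 4 had a second probe set. Both probe sets of Nid1 gave negative changes (-0.57 and -0.73). For Col1a2 the set used gave 0.06 and the other, at a lower mean signal of 4.47, gave -0.37. Col5a1 had -0.11 and -0.16, and Col6a1 0.22 and 0.04.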

How the data were processed

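Per the labels' protocols, RNA of sorted colon endothelial cells was extracted with the mirVana kit, and targets for Affymetrix Mouse Gene 2.0 arrays were made from 700 pg of total RNA. The values are log2 signals, as the authors deposited them for each probe set. The submitters' processing notes name RMA and Affymetrix Expression Console 1.4.1 as the tools. On arrays their number limits the precision. Groups came from the titles, and the labels name no batch.

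Of 41345 probe sets, 23521 had exactly 1 symbol in the platform annotation, and the set with the highest mean over the 8 arrays stood for each of 22180 genes. All genes were fitted with limma 3.58.1 in R 4.3.3 (eBayes with an intensity trend, no filter on dim genes), with Benjamini-Hochberg adjustment over all genes and a threshold of 0.05. The fit was tested on simulated data with independent noise for each gene and array, so shifts shared by many genes were not covered. The members and lists were chosen with earlier results of these data known, so lists are described by counts and medians without a test. Values on every array are given for the member with the highest mean and that with the smallest p in each role group and for the 4 largest folds, and further lists are described by the 2 genes with the smallest p. Genes named outside this rule were chosen after their values were seen. Alternatives covered the variance prior, a filter on dim genes, centring, weights for arrays, the mean over a gene's probe sets, a replicate block, covariates for epithelial and endothelial markers, and arrays left out.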

Additional observations from a re-analysis of the deposited data

Results flagged for a closer look

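A gap of 1 array from the rest of its group beyond Dixon's 95% critical value for 4 samples was found in 3 of the 76 groups of 4 arrays checked, and chance gives about 1 in 20. Col1a1 on allogeneic array 4 was 8.75, with 7.90 to 7.92 on the other allogeneic arrays. Fbln1 on syngeneic array 4 was 6.79, with 8.09 to 8.26 on the other syngeneic arrays. Col4a5 on syngeneic array 2 was 4.88, with 4.68 to 4.71 on the others, a small step at a low signal.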

How the results depend on the processing

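No member passed the limma threshold of 0.05 in any setting tried, arrays left out included. The smallest adjusted p was 0.0675 (Hspg2, replicate block). Without a variance trend, with genes of mean above 5, with centred arrays and with the replicate block no member changed sign. Same-numbered arrays had correlations of -0.10 to 0.10 over all genes, after the group means were removed. Such values cannot settle whether the numbers pair the samples. With the replicate block the SE of Hspg2 was 0.12 in place of 0.24, and that of Lamb3 0.19 in place of 0.17. The replicate block gave 68 genes past the threshold among all genes in place of 104. At a limma unadjusted p below 0.05 it held 17 of the 38 members, beside 3037 of all 22180 genes. The replicate block left the median of all members at -0.21. Leaving out syngeneic arrays 3 and 4 put it at -0.085, the endothelial covariate at 0.023 and the epithelial covariate at -0.075. Counts over all genes also moved to 38 (without syngeneic arrays 3 and 4), 24 (endothelial covariate) and 2 (epithelial covariate), and to between 8 and 180 with 1 array left out. With genes of mean above 5 the count was 197, out of 12132 genes rather than all 22180. The median of the vascular laminins and collagen IV was -0.11 with the epithelial and -0.069 with the endothelial covariate, and the covariates cost 1 residual degree of freedom among 8 arrays. The epithelial marker means did not overlap between the groups, so the fit with that covariate cannot separate donor type from epithelial RNA. With 1 array left out the median of the vascular laminins and collagen IV ranged from -0.70 to -0.25. That of all members ranged from -0.33 to -0.11 and that of the fibrillar collagens from -0.16 to 0.13.

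Genes whose sign turned, none of them past the threshold, had these changes. With the epithelial covariate Lamb2 had 0.16, Lama3 0.12, Col4a2 0.066, Nid1 0.21, Agrn 0.14, Col15a1 0.59, Col1a1 -0.17, Col1a2 -0.27, Col6a2 0.010, Sparc 0.20, Sparcl1 0.39, Eln 0.43, Fbln2 0.34 and Fbln5 0.68. With the endothelial covariate Lamb1 had 0.051, Lamc1 0.076, Nid1 0.14, Agrn 0.093, Col15a1 0.41, Col6a2 0.24, Sparc 0.11, Sparcl1 0.15, Eln 0.36, Fbln2 0.22 and Fbln5 0.50. Without syngeneic arrays 3 and 4 Nid1 had 0.016, Agrn 0.053, Col15a1 0.21, Col6a2 0.064, Sparc 0.039, Sparcl1 0.14, Eln 0.30, Fbln2 0.16 and Fbln5 0.45. With array weights Col1a2 had -0.0066, Eln 0.026 and Fbln5 0.10, and with the mean of probe sets Col1a2 had -0.16. With 1 array left out the ranges that crossed 0 were those of Col4a5 (-0.15 to 0.067), Col15a1 (-0.48 to 0.12), Col1a2 (-0.16 to 0.23), Col3a1 (-0.28 to 0.040), Col5a2 (-0.093 to 0.16), Col6a1 (-0.012 to 0.33), Col6a2 (-0.23 to 0.11), Fn1 (-0.37 to 0.048), Eln (-0.26 to 0.12), Fbln1 (-0.36 to 0.13) and Fbln5 (-0.31 to 0.25). The cause was not tested.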
